A study of Mus musculus with 3 samples.

Results

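The genes described here are 41 cell cycle genes, taken by symbol from the 32285 features of single-cell RNA libraries of the mouse otic vesicle at E10.5, and followed through the cell classes of the early inner ear. They comprise 22 mitotic genes (Mki67, Top2a, Ccnb1, Ccnb2, Cdk1, Aurka, Aurkb, Birc5, Cdc20, Cenpe, Cenpf, Aspm, Ube2c, Nusap1, Kif11, Kif23, Bub1, Plk1, Tpx2, Prc1, Incenp and Ccna2), 14 genes of G1/S entry and DNA replication (Mcm3, Mcm4, Mcm5, Mcm6, Pcna, Gins2, Rrm2, Tyms, Ung, Cdc6, Cdt1, Ccne1, Ccne2 and E2f1), the 3 D-type cyclins Ccnd1, Ccnd2 and Ccnd3, and the 2 cyclin-dependent kinase (CDK) inhibitors Cdkn1a and Cdkn1b. All 41 symbols were found, and all 41 passed the filter on low counts in every comparison. The study made 1 library from Sox9 Y440X/+ embryos, labelled CD and heterozygous for a nonsense allele of the transcription factor SOX9, and 2 libraries from wild-type (WT) embryos. Otic vesicles were pooled before dissociation, the number of embryos per pool is not given in the sources used here, and no treatment was applied. Because CD is 1 library, the effect of genotype and that of the pool cannot be told apart.

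Cells in which 1000 or more genes were detected, and in which mitochondrial transcripts took no more than 10% of UMIs, were assigned to classes by UMI counts (unique molecular identifiers, each standing for 1 captured transcript) of markers that are not among the 41 genes. Otic cells had at least 1 UMI of Epcam and at least 2 of Fbxo2, Hmx2, Hmx3 and Pax2 together, and neuroblasts had at least 2 UMIs of Neurod1 with none of Stmn2 or Epcam. Neurons had at least 3 UMIs of Stmn2, mesenchyme had at least 2 of Prrx1 and Twist1 together, and both lacked Epcam. Otic cells with at least 2 UMIs of Neurog1, the factor that starts neurogenesis in the otic epithelium, are called neurogenic otic cells and were set against otic cells with no Neurog1 UMI. Neurod1 and Stmn2 also mark neuroblasts and neurons of other cranial ganglia and of the hindbrain, and the gates do not separate these from the otic lineage. In every list of 3 values below, the order is CD replicate 1, WT replicate 1 and WT replicate 2.

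In a dividing cell, D-type cyclins with their CDK partners release E2F factors from the retinoblastoma protein, E2F factors switch on cyclin E and the replication genes, and later the cyclin A and B kinases and the mitotic genes carry the cell through G2 and M. CDK inhibitors of the Cip/Kip family, such as p21 (Cdkn1a) and p27 (Cdkn1b), hold this machinery back. In the otic vesicle, neuroblasts leave the epithelium while they can still divide, and leave the cycle as they become neurons of the cochleovestibular ganglion.

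The gates gave 2778, 2537 and 4083 otic cells, 109, 94 and 136 neuroblasts, 629, 423 and 637 neurons and 1860, 1083 and 2508 mesenchymal cells, while 3253, 2453 and 3769 cells met no gate. The marker lists contain genes of the gates, such as Epcam in the otic list and Stmn2 in the neuronal list. The sums of markers were thus partly set by the gates. Each class held its own markers. For example, 17 otic markers summed to between 2790 and 3267 CPM (UMIs of a gene scaled to a common total for every sum of cells) in otic cells and to between 410.1 and 748 CPM in the other classes, and 16 neuronal markers reached between 12693 and 14113 CPM in neurons. Neuroblasts were the smallest and shallowest class, with median depths of 8796, 11144.5 and 8020 UMIs against 22616.5, 25431 and 18752 in otic cells, and haemoglobin transcripts took 4.04, 5.23 and 2.11% of their UMIs against 0.759, 0.419 and 0.721% in otic cells. Of the neuroblasts 12, 4 and 33 cells, and of the neurons 69, 22 and 82 cells, also met the mesenchyme gate. The neuron gate held 27, 28 and 32 cells with at least 3 UMIs of 9 endothelial markers. WT replicate 2 had the lowest summed level of the 22 mitotic genes of the 3 libraries in each of the 4 classes. Levels of single genes below are CPM scaled by TMM (a correction for composition) unless stated. Sums over the mitotic, replication or D-type cyclin genes, and all levels in neurons divided by Stmn2, are unscaled CPM. Differences are log2 fold changes ± SE from edgeR's quasi-likelihood test on counts summed per library and class, with p adjusted by the Benjamini-Hochberg method over all genes tested and a threshold of 0.05. A level is a share of the transcripts of a class, so that fewer cycling cells and less transcript per cycling cell cannot be told apart in these sums. The CD and WT libraries all enter the comparisons between classes, each class being set against another class of the same library.

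Because the mitotic and the replication genes did not move together in every comparison, the promoters of 3 mitotic and 2 replication members are shown here, chosen with their motif matches known. CCAAT boxes and the cell cycle homology region (TTTGAA or TTTAAA) are known from promoters active in G2 and M, and E2F motifs (searched as TTTCCCGC, TTTCGCGC, TTTGCCGC and TTTGGCGC) from promoters active in G1/S. RefSeq promoter windows (build GRCm38.p6, 250 bases before to 50 after the gene start) were available for 32 of the 41 genes, and motifs were searched on both strands. The 250 bases before the start are printed 5′ to 3′ along the gene, with motif matches in capitals. A match on the reverse strand appears as its reverse complement, so that CCAAT reads ATTGG, and overlapping matches run together. The printed windows are chr13:100786487-100786736 (minus strand) for Ccnb1, the cyclin of the mitotic kinase, chr11:99024190-99024439 (minus strand) for Top2a, the topoisomerase that untangles sister chromatids, chr10:69352913-69353162 (minus strand) for Cdk1, the mitotic kinase itself, chr8:75109259-75109508 (plus strand) for Mcm5, a subunit of the replicative helicase, and chr2:132253181-132253430 (minus strand) for Pcna, the sliding clamp. Mcm5 is among the replication windows with an E2F match and Pcna among the 6 of 11 without one. The window of E2f1, also among the 6, holds none of the motifs searched and is not printed.
Ccnb1: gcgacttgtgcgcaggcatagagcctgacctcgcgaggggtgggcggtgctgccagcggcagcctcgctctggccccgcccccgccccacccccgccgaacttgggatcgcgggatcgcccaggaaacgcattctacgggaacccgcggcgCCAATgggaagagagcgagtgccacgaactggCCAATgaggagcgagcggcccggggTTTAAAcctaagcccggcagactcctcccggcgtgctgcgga
Top2a: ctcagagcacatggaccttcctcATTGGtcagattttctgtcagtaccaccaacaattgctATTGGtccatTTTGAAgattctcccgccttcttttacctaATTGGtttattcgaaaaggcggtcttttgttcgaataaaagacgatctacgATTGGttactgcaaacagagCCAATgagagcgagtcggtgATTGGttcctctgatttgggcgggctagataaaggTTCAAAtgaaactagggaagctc
Cdk1: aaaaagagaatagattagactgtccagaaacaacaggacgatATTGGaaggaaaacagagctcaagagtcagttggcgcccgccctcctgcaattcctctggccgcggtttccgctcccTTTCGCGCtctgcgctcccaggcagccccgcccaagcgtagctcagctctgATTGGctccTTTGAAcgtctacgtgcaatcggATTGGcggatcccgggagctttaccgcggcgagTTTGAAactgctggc
Mcm5: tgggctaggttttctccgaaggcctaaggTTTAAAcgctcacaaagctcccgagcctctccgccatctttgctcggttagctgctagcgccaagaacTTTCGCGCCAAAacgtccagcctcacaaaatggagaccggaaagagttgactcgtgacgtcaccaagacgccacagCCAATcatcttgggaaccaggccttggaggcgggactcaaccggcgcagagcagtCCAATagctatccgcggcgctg
Pcna: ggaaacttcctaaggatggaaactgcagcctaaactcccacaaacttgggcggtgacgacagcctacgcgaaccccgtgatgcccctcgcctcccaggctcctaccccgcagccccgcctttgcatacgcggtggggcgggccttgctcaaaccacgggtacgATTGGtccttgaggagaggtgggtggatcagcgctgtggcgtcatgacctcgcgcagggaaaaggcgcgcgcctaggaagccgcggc

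CCAAT was held by 16 of the 18 mitotic windows (88.9%) and by 5 of the 11 replication windows (45.5%), against 41.1% of 27025 windows of all genes. TTTGAA was held by 13 of the 18 mitotic windows (72.2%) and none of the 11 replication windows, against 20.2% of all windows, and TTTAAA by 7 of 18 (38.9%) and 3 of 11 (27.3%) against 14.9%. The E2F motif showed the opposite split, with 1 of 18 mitotic windows (5.56%, that of Cdk1) and 5 of 11 replication windows (45.5%, those of Mcm3, Mcm5, Mcm6, Cdc6 and Cdt1) against 2.60% of all windows. The Top2a window held 6 CCAAT matches and the Ccnb1 window 2, at 99 and 67 bases before the start. These matches are descriptions of the letters in each window, and the libraries carry no measurement of factor binding.

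**Figure D1:**
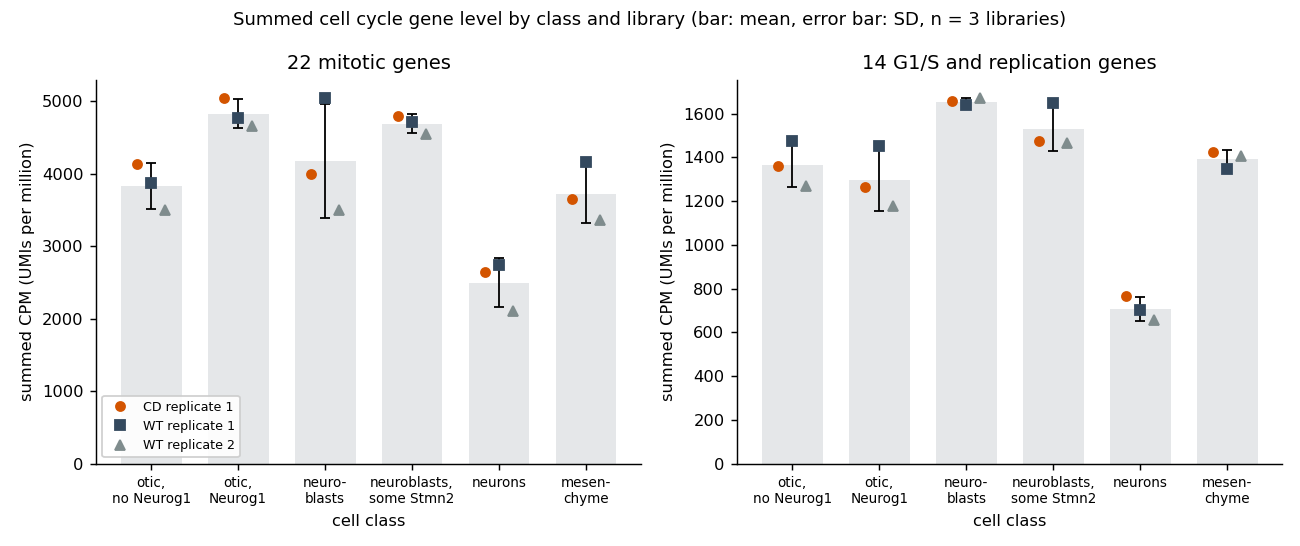
Summed level (CPM, unscaled) of the 22 mitotic genes (left) and the 14 G1/S and replication genes (right) in each class, with points for the 3 libraries, bars for their mean and error bars for the SD. The mitotic sum stood at 4823 ± 199.7 CPM in neurogenic otic cells and 2496 ± 341 CPM in neurons, and the replication sum at 1655 ± 16.1 CPM in neuroblasts and 708 ± 55.7 CPM in neurons.

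Within the otic epithelium, most mitotic genes were higher in cells with Neurog1 than in cells without it, whereas most replication genes did not pass the test, or fell where another scaling was used. The sums that follow are unscaled, whereas the fold changes are on the TMM scale. The 22 mitotic genes summed to 5043, 4772 and 4653 CPM in neurogenic otic cells (96, 116 and 97 cells) and to 4131, 3867 and 3498 CPM in the other otic cells, with no overlap between the 2 sets of libraries. The 14 replication genes summed to 1264, 1453 and 1176 CPM and 1359.7, 1473 and 1267 CPM, with overlap between the sets and the lower sum in the neurogenic cells of each library. Of the 41 genes, 21 rose and 5 fell, where 17.4% of the 15965 genes tested passed the threshold (9.18% higher and 8.25% lower). The rise covered 19 of the 22 mitotic genes (median log2 fold change 0.36, all genes -0.01), whereas of the 14 replication genes E2f1 rose, Ccne1 and Tyms fell and 11 did not pass (median -0.06). These counts depended on the scaling. With TMM factors taken from all classes of the path to neurons, which moved the median of all genes by -0.13, 15 mitotic genes rose and 0 fell (median 0.22, all genes -0.14), and 8 replication genes fell and 1 rose (median -0.19). On that scale Mki67 (log2 fold change 0.19, adjusted p = 0.0046) and Cdk1 (log2 fold change 0.13, adjusted p = 0.042) rose less, Pcna fell (log2 fold change -0.22, adjusted p = 0.0021), and 924 genes were higher and 3150 lower over all genes, against 1466 and 1317. With library totals alone the counts were again 21 and 5.

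Ube2c, the E2 enzyme that feeds the anaphase-promoting complex, was at 628, 572 and 563 CPM in neurogenic otic cells and at 420.2, 428 and 408 CPM in other otic cells, the largest rise among the mitotic genes (log2 fold change 0.52 ± 0.05, adjusted p = 1.1e-06). It was followed by the kinetochore motor Cenpe (264, 261 and 231 CPM against 203, 192 and 167 CPM, log2 fold change 0.46 ± 0.04, adjusted p = 2.5e-06) and by the spindle protein Nusap1 (197, 216 and 184 CPM against 159, 162 and 135 CPM, log2 fold change 0.42 ± 0.05, adjusted p = 1.0e-05). In each of these genes the neurogenic level exceeded the other otic level of the same library in 3 of 3 libraries. The proliferation marker Mki67 stood at 408, 335 and 347 CPM against 326, 289 and 270.2 CPM (log2 fold change 0.33 ± 0.05, adjusted p = 1.2e-04). Top2a stood at 662, 595 and 647 CPM against 563, 482 and 473 CPM (log2 fold change 0.36 ± 0.05, adjusted p = 6.3e-05). The kinase Cdk1 and its partners Ccnb1 and Ccna2 rose by similar amounts (log2 fold changes 0.27 ± 0.05, 0.38 ± 0.05 and 0.36 ± 0.05). Aurkb, Incenp and Kif23, which act together in cytokinesis, were the 3 mitotic genes that did not pass, at 0.04, 0.09 and 0.17. With the factors of the whole path Aurkb and Incenp turned to -0.099 and -0.046, again without passing.

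Cyclin E1 (Ccne1), which drives entry into S phase, was lower in neurogenic otic cells, at 39.8, 69.5 and 51.2 CPM against 55.4, 84.8 and 67.3 CPM (log2 fold change -0.34 ± 0.07, adjusted p = 0.0024). Its fall held in each library, although the levels of the libraries overlapped between the groups. E2f1, which encodes an activating E2F factor, moved the other way, from 20.01, 18.4 and 21.5 CPM in other otic cells to 30.3, 33.2 and 37.5 CPM (log2 fold change 0.79 ± 0.10, adjusted p = 3.1e-05). Ccne2, Pcna, Mcm5 and Mcm6 did not pass, with log2 fold changes of -0.15, -0.08, -0.03 and -0.04, although Mcm5 (log2 fold change -0.16, adjusted p = 0.036) and Mcm6 (log2 fold change -0.17, adjusted p = 0.017) also fell with the factors of the whole path. The thymidylate synthase gene Tyms changed by -0.15 ± 0.05 (adjusted p = 0.042), a call that ended without WT replicate 2 (log2 fold change -0.15, adjusted p = 0.054) and without CD replicate 1 (log2 fold change -0.13, adjusted p = 0.15). Neurogenic otic cells were also the deeper ones, with median depths of 26839, 31179.5 and 25053 UMIs against 22433, 25096 and 18580. Scrublet called doublets in 12 of 96, 9 of 116 and 11 of 97 neurogenic otic cells. Among other otic cells it called 120 of 2603, 93 of 2356 and 210 of 3885, a smaller share in each library. When every cell was first thinned to 5000 UMIs, 13 of the 41 genes rose and 2 fell. Without WT replicate 2, 3 of the 41 fell. Over all genes 1222 passed after thinning and between 2015 and 2691 with 1 library left out, against 2783 in the main fit.

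Neuroblasts, defined here by Neurod1 without Epcam, had higher levels of replication genes than otic cells, and of some of the mitotic genes. Of the 41 genes, 16 rose and 2 fell against otic cells, where 28.7% of the 15820 genes tested passed (12.3% higher and 16.4% lower). DESeq2 called 2605 genes higher and 2117 lower over all genes, against 1940 and 2593 by edgeR. With library totals alone, without TMM, the median of all genes moved by -0.12, 1423 genes were higher and 3583 lower, and 11 of the 41 rose and 4 fell. Among the 14 replication genes 8 rose and 0 fell (median log2 fold change 0.32, all genes -0.08), and among the 22 mitotic genes 7 rose and 0 fell (median 0.16). The 7 were Ccna2, Top2a, Cdk1, Birc5, Bub1, Mki67 and Aurkb, and the 15 others lay between -0.22 (Aspm) and 0.27 (Aurka). Without TMM the counts were 5 and 0 of the replication genes and 5 and 2 of the mitotic genes, and Mki67 (log2 fold change 0.20, adjusted p = 0.11) and Mcm6 (log2 fold change 0.21, adjusted p = 0.068) did not pass.

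E2f1 changed more than any other of the 41 genes in this comparison. It stood at 19.99, 19.4 and 21.5 CPM in otic cells and at 73.4, 67.9 and 52.8 CPM in neuroblasts (log2 fold change 1.69 ± 0.14, adjusted p = 3.0e-06). Every neuroblast value lay above every otic value. Rrm2, the regulatory subunit of ribonucleotide reductase that supplies deoxynucleotides, went from 173, 209.8 and 158 CPM to 299, 308 and 245 CPM (log2 fold change 0.69 ± 0.07, adjusted p = 8.0e-06). The sliding clamp gene Pcna went from 223, 253 and 189.9 CPM to 330.1, 292 and 275 CPM (log2 fold change 0.47 ± 0.10, adjusted p = 0.0033), again without overlap. Among the S-phase cyclins, Ccne2 rose from 24.4, 24.0 and 20.2 CPM to 40.9, 33.1 and 28.5 CPM (log2 fold change 0.60 ± 0.13, adjusted p = 0.0033). Without CD replicate 1 the Ccne2 call ended (log2 fold change 0.53, adjusted p = 0.066). Ccne1 did not pass, at 52.3, 80.6 and 64.4 CPM and 63.1, 74.0 and 74.4 CPM (log2 fold change 0.15 ± 0.14, adjusted p = 0.49). Of the helicase subunits, Mcm6 rose from 130.4, 134 and 126 CPM to 157, 146 and 173 CPM (log2 fold change 0.33 ± 0.08, adjusted p = 0.0099), a call that ended without WT replicate 2 (log2 fold change 0.25, adjusted p = 0.093), and Mcm5 was at 92.6, 96.2 and 98.3 CPM and 105, 101 and 115 CPM (log2 fold change 0.19 ± 0.08, adjusted p = 0.089). Without WT replicate 1, or with DESeq2, Mcm5 passed the threshold.

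Of the mitotic genes, Ccna2, the cyclin that serves both S phase and G2, stood at 95.5, 102 and 93.3 CPM in otic cells and 152, 163 and 118 CPM in neuroblasts (log2 fold change 0.59 ± 0.08, adjusted p = 1.5e-04). Top2a rose from 547, 474 and 462 CPM to 749.7, 789 and 618 CPM (log2 fold change 0.57 ± 0.07, adjusted p = 8.9e-05). Cdk1 rose from 156, 155 and 154 CPM to 212, 229.7 and 168 CPM (log2 fold change 0.41 ± 0.08, adjusted p = 0.0016). In these 3 genes the classes did not overlap. Mki67 was at 317, 284 and 265 CPM and 354, 418 and 290.0 CPM (log2 fold change 0.32 ± 0.09, adjusted p = 0.017), with overlapping levels, and its call ended without WT replicate 1 (log2 fold change 0.18, adjusted p = 0.22). Ccnb1 did not pass, at 133, 131 and 122 CPM and 133, 163 and 128 CPM (log2 fold change 0.16 ± 0.09, adjusted p = 0.19). Neuroblasts differed from otic cells also in depth and in haemoglobin share, as given above. With the cells of over 5% haemoglobin left out the counts were again 16 higher and 2 lower, and after thinning every cell to 5000 UMIs they were 11 higher and 2 lower. Leaving out 1 library gave between 12 and 15 higher and between 0 (without CD replicate 1) and 4 (without WT replicate 1) lower. Over all genes 2309 passed after thinning and between 2603 and 3381 with 1 library left out, against 4533 in the main fit.

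**Figure D2:**
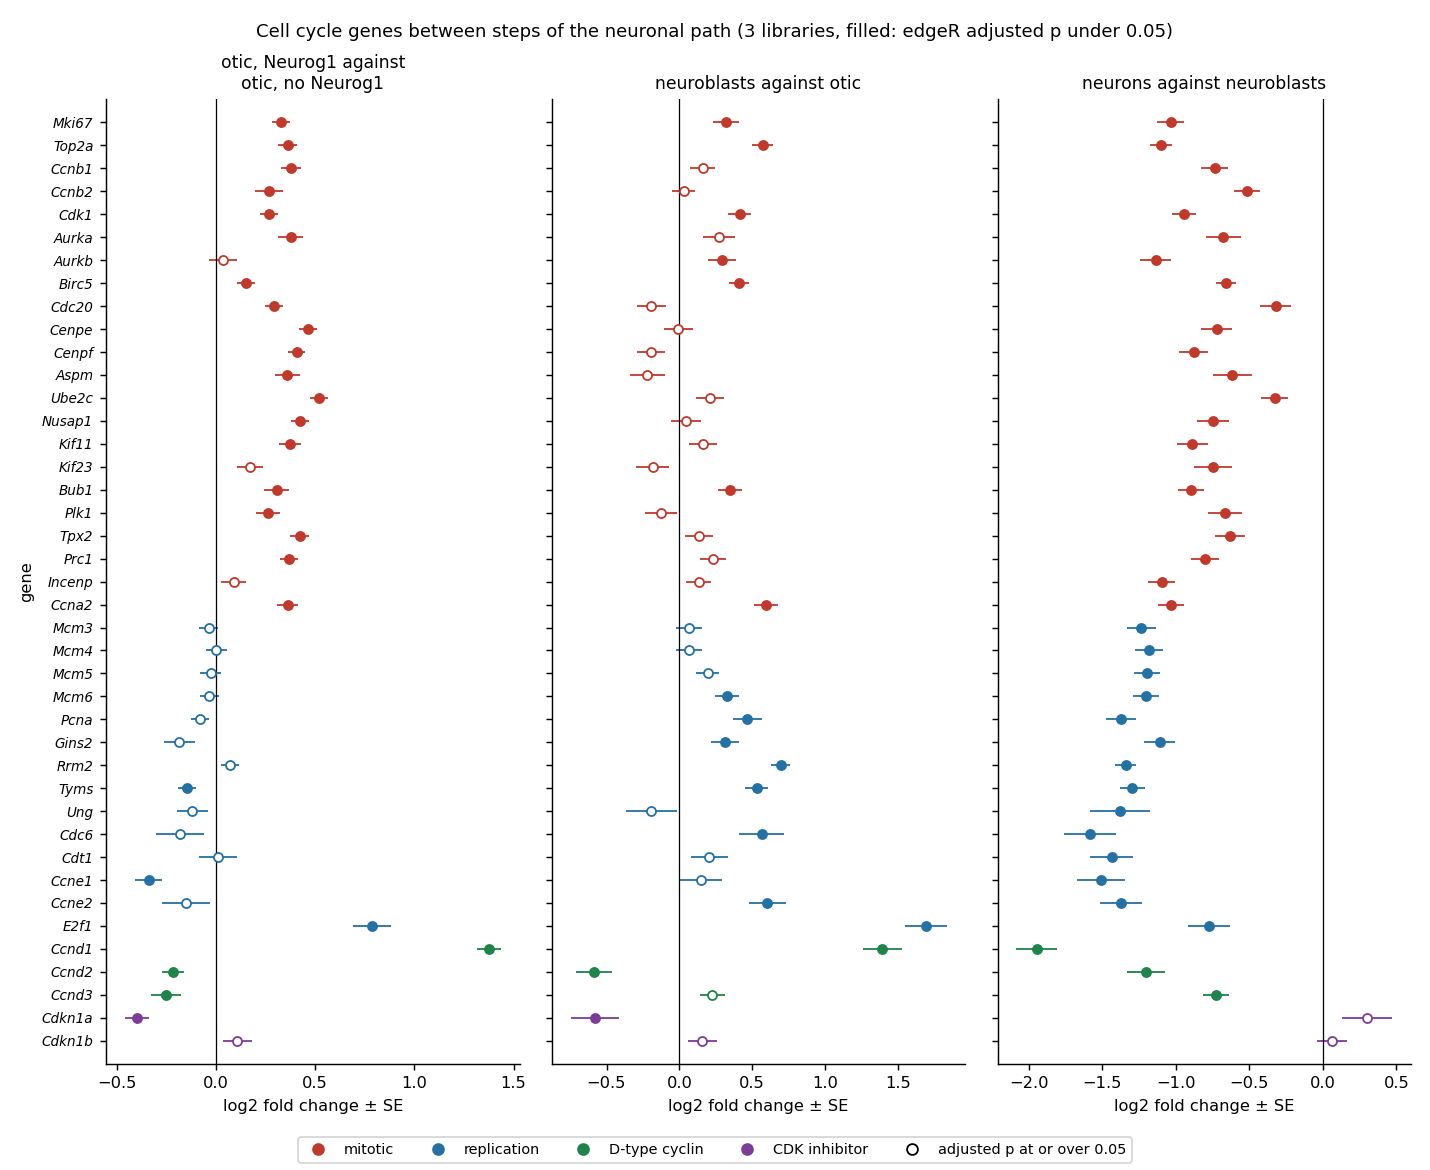
Log2 fold change ± SE of each of the 41 genes (rows, coloured by group) between neurogenic and other otic cells, between neuroblasts and otic cells, and between neurons and neuroblasts, from the fits over 3 libraries. Filled points passed the threshold, and 39 of the 41 genes lie below 0 and are filled in the comparison of neurons with neuroblasts.

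In neurons, 39 of the 41 genes were lower than in neuroblasts and none was higher, where 28.5% of all genes tested passed (15.4% higher and 13.1% lower). All 14 replication genes fell, with a median log2 fold change of -1.32, and all 22 mitotic genes fell, with a median of -0.75, against 0.04 for all genes. The 3 D-type cyclins fell as well. The 2 genes that did not pass were the CDK inhibitors Cdkn1a and Cdkn1b.

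The largest fall among the replication genes was that of Cdc6, which loads the replicative helicase onto origins, from 29.9, 38.3 and 41.7 CPM in neuroblasts to 13.3, 13.1 and 10.3 CPM in neurons (log2 fold change -1.58 ± 0.18, adjusted p = 2.6e-05). Its partner in loading, Cdt1, fell from 38.4, 34.8 and 47.3 CPM to 16.2, 13.7 and 14.2 CPM (log2 fold change -1.44 ± 0.15, adjusted p = 1.2e-05). Ung, the uracil glycosylase of base excision repair, fell from 35.0, 35.7 and 55.6 CPM to 16.5, 12.6 and 18.8 CPM (log2 fold change -1.38 ± 0.20, adjusted p = 2.2e-04). In none of the 3 did the classes overlap. Pcna fell from the levels above to 133, 109 and 99.8 CPM (log2 fold change -1.37 ± 0.10, adjusted p = 1.1e-06). Ccne1 fell to 25.4, 23.4 and 23.7 CPM (log2 fold change -1.51 ± 0.16, adjusted p = 2.1e-05) and Ccne2 to 14.8, 11.4 and 12.48 CPM (log2 fold change -1.37 ± 0.14, adjusted p = 1.5e-05). The cyclin E genes thus stood at their lowest of the 4 classes in neurons. Mcm5 stood at 46.7, 40.5 and 50.4 CPM in neurons (log2 fold change -1.20 ± 0.09) and Mcm6 at 75.2, 64.0 and 64.7 CPM (-1.20 ± 0.09).

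E2f1 fell less than the other replication genes, from 73.4, 67.9 and 52.8 CPM to 42.2, 32.2 and 35.7 CPM (log2 fold change -0.78 ± 0.14, adjusted p = 0.0012). In neurons it stayed above its otic level of 19.99, 19.4 and 21.5 CPM (log2 fold change 0.91 ± 0.10, adjusted p = 4.6e-06), and it was the only replication gene of which this was so. Over the 41 genes, neurons against otic cells gave 38 lower and 2 higher (E2f1 and Cdkn1b), where 64.7% of all genes passed (29.6% higher and 35.2% lower), and Ube2c did not pass (log2 fold change -0.12 ± 0.09, adjusted p = 0.24). The largest falls from otic cells were those of Ccnd2 (-1.79 ± 0.11), Ung (-1.57 ± 0.13), Ccne1 (-1.36 ± 0.11), Cdt1 (-1.23 ± 0.09) and the helicase subunit gene Mcm3 (-1.17 ± 0.08), each with the neuronal value below the otic value in 3 of 3 libraries. The other genes given per library above had log2 fold changes from otic cells to neurons of -0.72 ± 0.08 for Mki67, -0.53 ± 0.07 for Top2a, -0.53 ± 0.07 for Cdk1, -0.57 ± 0.07 for Ccnb1 and -0.44 ± 0.07 for Ccna2. For the replication genes they were -0.90 ± 0.09 for Pcna, -1.003 ± 0.063 for Mcm5, -0.88 ± 0.07 for Mcm6 and -0.77 ± 0.09 for Ccne2.

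Among the mitotic genes Mki67 stood at 199, 181 and 131 CPM in neurons (log2 fold change -1.03 ± 0.09, adjusted p = 4.3e-06 against neuroblasts). Top2a stood at 372, 338 and 278 CPM (log2 fold change -1.10 ± 0.07, adjusted p = 5.0e-07). Cdk1 stood at 102, 113 and 94.0 CPM (log2 fold change -0.95 ± 0.08, adjusted p = 3.2e-06). For each of them every neuronal value lay below every neuroblast value. Ccnb1 was at 88.4, 86.5 and 74.4 CPM (log2 fold change -0.73 ± 0.09, adjusted p = 5.6e-05) and Ccna2 at 72.8, 72.9 and 60.3 CPM (log2 fold change -1.03 ± 0.09, adjusted p = 2.4e-06). The smallest falls were those of Cdc20 (-0.32 ± 0.10), the activator of the anaphase-promoting complex, and of its E2 enzyme Ube2c (-0.33 ± 0.09). The neuron gate held more endothelial marker transcripts (228, 363 and 282 CPM over 9 markers) than otic cells (22.4, 18.4 and 29.0 CPM). With the cells of at least 3 endothelial UMIs left out, 39 genes were again lower and 0 higher. Over all alternatives between 33 and 39 of the 41 were lower, the smallest count coming from thinning to 5000 UMIs. Thinning left 2277 genes that passed over all genes, against 4501 in the main fit.

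The neuron gate was not uniform for these genes. Neurons were divided by their Stmn2 UMIs after each cell had been thinned to 5000 UMIs, into cells with 0 to 2 (115, 71 and 96 cells), 3 to 9 (193, 123 and 142 cells) and 10 or more (263, 183 and 287 cells). Stmn2 encodes a microtubule regulator of growing axons. The 22 mitotic genes summed to 4029, 4904 and 4107 CPM in the lowest bin, 4169, 3765 and 3203 CPM in the middle bin and 937, 1219.6 and 824 CPM in the highest. The lower bins thus held sums within or above the range of otic cells (4174, 3933 and 3536 CPM) in all libraries except WT replicate 2 in the middle bin, while the highest bin stood below that range in all 3. The replication genes summed to 1262, 1116 and 1174 CPM in the lowest bin, 1065, 1017 and 972 CPM in the middle bin and 325, 328 and 302 CPM in the highest. Median depths before thinning were 19240, 19663 and 18792.5 UMIs per cell in the lowest bin, 16656, 16707 and 15162.5 in the middle bin and 18262, 18467 and 16929 in the highest.

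Cells that also met the mesenchyme gate made up 28, 6 and 30 cells of the lowest bin, and cells with endothelial markers 16, 19 and 23. Without both kinds of cell the mitotic sums were 4155, 5408 and 4783 CPM in the lowest bin, 4641, 4033 and 3582 CPM in the middle bin and 951, 1244 and 871 CPM in the highest. Between the lowest and the highest bin, Mki67 and Ccnd1 fell as the sums did. Mki67 was at 376, 336 and 244 CPM in the lowest bin and 52.0, 70.5 and 44.2 CPM in the highest. Ccnd1 was at 1047, 823 and 768 CPM and 235, 205 and 179.8 CPM. In the middle bin Ccnd1 lay above the lowest bin in each library, at 1127, 890.3 and 789 CPM. The CDK inhibitor gene Cdkn1c (p57), which is not among the 41, ran the other way between these 2 bins, at 593, 760.1 and 599 CPM and 1024, 915 and 916 CPM. Its middle bin was at 707, 964 and 603 CPM, the highest of the 3 bins in WT replicate 1. Cdkn2d (p19) was at 45.0, 44.3 and 42.9 CPM and 125, 119 and 168 CPM, while Cdkn1b was at 48.5, 60.4 and 54.7 CPM and 47.3, 66.5 and 49.2 CPM. This split was chosen after the data had been seen and is given without a test.

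**Figure D3:**
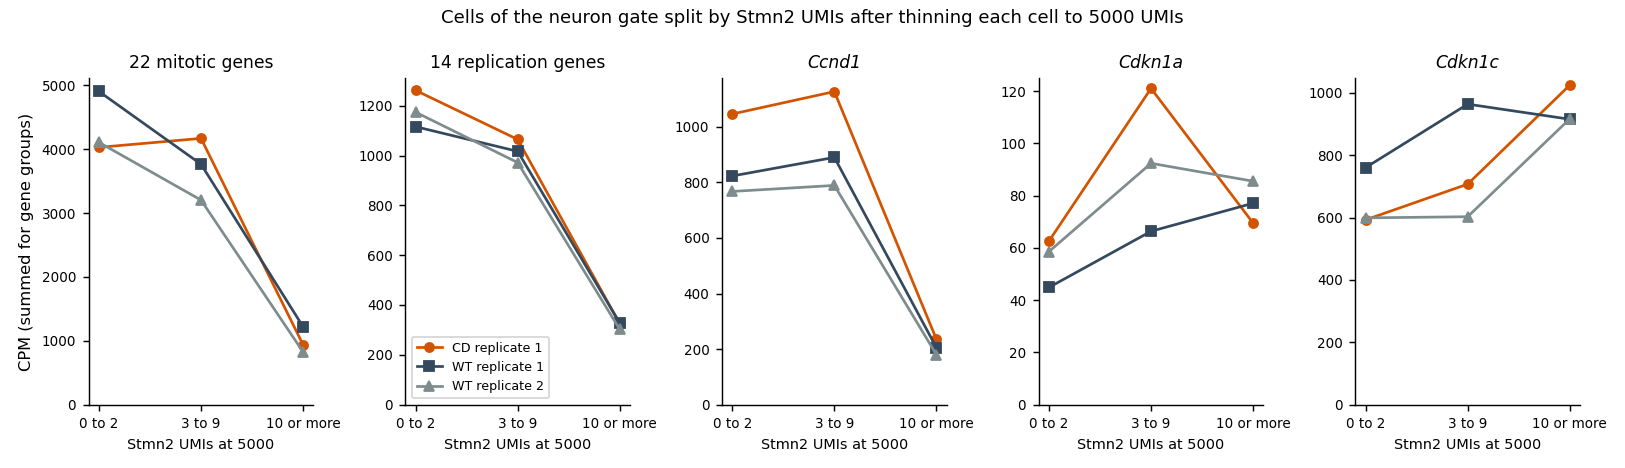
Cells of the neuron gate divided by Stmn2 UMIs at 5000 UMIs per cell (x axis), with the summed CPM of the 22 mitotic and the 14 replication genes and the CPM of Ccnd1, Cdkn1a and Cdkn1c (y axes, unscaled), 1 line per library. In all 3 libraries the cell cycle sums and Ccnd1 are lowest in the bin of 10 or more, where the mitotic sum is 937, 1219.6 and 824 CPM.

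Counts of detected genes per cell showed the same unevenness. At 5000 UMIs per cell, 36.6, 41.4 and 36.8% of neurons had 0 or 1 of the 22 mitotic genes detected, against 15.1, 14.3 and 15.7% of otic cells, 7.79, 4.41 and 4.49% of neuroblasts and 9.03, 4.78 and 8.27% of mesenchymal cells. At the other end, 27.3, 29.4 and 17.3% of neurons had 10 or more, against 45.2, 48.1 and 39.4% of otic cells. Cells with at most 1 mitotic and at most 1 replication gene made up 26.3, 29.7 and 24.4% of neurons and 4.54, 3.18 and 3.75% of otic cells. Neurons stood apart from the other classes in each library. Free RNA adds to such detection. The otic gene Oc90, which neurons should lack, was detected at 5000 UMIs in 0.876, 3.71 and 14.9% of neurons and 15.8, 50.2 and 64.7% of otic cells, and Mki67 in 36.4, 36.1 and 25.9% of neurons and 53.8, 55.5 and 48.5% of otic cells. Cells under 5000 UMIs were left out (58, 46 and 112 neurons, 44, 20 and 111 otic cells and 32, 26 and 47 neuroblasts).

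**Figure D4:**
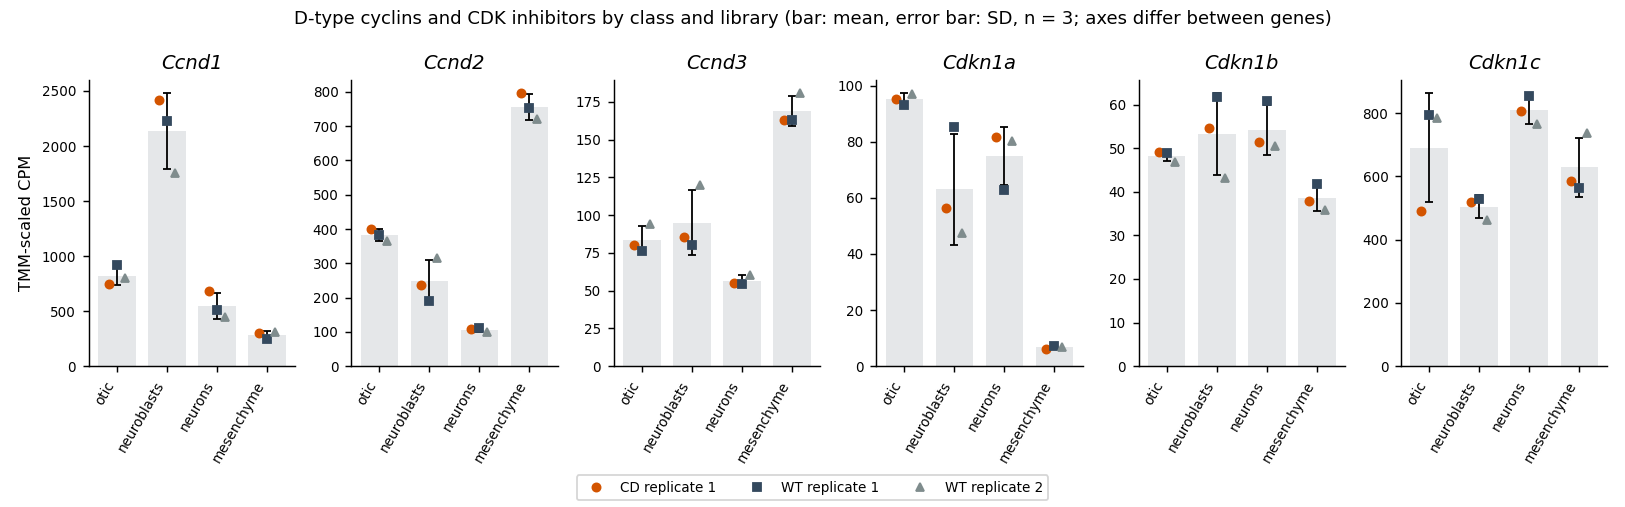
Levels (TMM-scaled CPM) of the 3 D-type cyclins and of the CDK inhibitors Cdkn1a, Cdkn1b and Cdkn1c in the 4 classes, with points for the 3 libraries, bars for the mean and error bars for the SD. Ccnd1 is highest in neuroblasts, Ccnd2 and Ccnd3 in mesenchyme, and Cdkn1a in mesenchyme lies at 6.10, 7.04 and 6.81 CPM.

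The D-type cyclins each had their own order over the classes. Ccnd1 was highest in neuroblasts, at 2421, 2227 and 1751 CPM, then in otic cells, at 748, 919.9 and 803 CPM, in neurons, at 679, 509.5 and 449 CPM, and lowest in mesenchyme, at 302, 245 and 310.1 CPM. No 2 neighbouring classes in this order overlapped. The rise from otic cells to neuroblasts (log2 fold change 1.39 ± 0.14, adjusted p = 9.8e-06) and the fall from neuroblasts to neurons (log2 fold change -1.94 ± 0.14, adjusted p = 7.8e-07) were the second largest and the largest changes among the 41 genes in those comparisons. The fall from otic cells to neurons was smaller (log2 fold change -0.55 ± 0.13, adjusted p = 0.0027). Mesenchyme lay below otic cells (log2 fold change -1.51 ± 0.14, adjusted p = 7.6e-07). Within the otic epithelium Ccnd1 was already higher where Neurog1 was present, at 2043, 1912 and 1989 CPM against 702, 870.2 and 776 CPM (log2 fold change 1.38 ± 0.06, adjusted p = 2.8e-10). Neuroblasts with 1 or 2 UMIs of Stmn2 (62, 48 and 108 cells) were at 1378, 2077 and 1439 CPM on a scale fitted with the other classes of this path, on which neuroblasts were at 2464, 2302 and 1762 CPM and neurons at 719, 545 and 472 CPM. They lay between those classes in 3 of 3 libraries.

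Ccnd2 had another order. It was highest in mesenchyme, at 796, 753 and 722 CPM, and stood at 399, 383 and 366 CPM in otic cells (log2 fold change 1.01 ± 0.10, adjusted p = 2.9e-06). In neuroblasts it was at 235, 191 and 315 CPM, lower than in otic cells (log2 fold change -0.59 ± 0.12, adjusted p = 0.0030), a call that ended without CD replicate 1 (log2 fold change -0.50, adjusted p = 0.087). In neurons it was at 107, 111 and 100.5 CPM (log2 fold change -1.20 ± 0.13, adjusted p = 1.8e-05 against neuroblasts). Without cells of more than 1 gate its difference between neuroblasts and otic cells was larger (log2 fold change -1.40, adjusted p = 2.7e-05). The 4 classes did not overlap in Ccnd2. In neurogenic otic cells it was at 348, 378 and 287 CPM against 420.1, 399 and 383 CPM (log2 fold change -0.22 ± 0.05, adjusted p = 0.011).

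Ccnd3 was also highest in mesenchyme, at 163, 163 and 181 CPM against 80.4, 76.5 and 94.2 CPM in otic cells (log2 fold change 1.04 ± 0.06, adjusted p = 9.8e-09). Neuroblasts were at 85.3, 80.0 and 119.6 CPM and overlapped with otic cells (log2 fold change 0.23 ± 0.09, adjusted p = 0.065), and DESeq2 called this difference (log2 fold change 0.28, adjusted p = 0.011). The neuroblast value of WT replicate 2 was the high one, and 33 of its 136 neuroblasts also met the mesenchyme gate. Without the cells of more than 1 gate the difference turned to -0.21. Neurons were at 55.2, 54.3 and 60.5 CPM, below both (log2 fold change -0.73 ± 0.09, adjusted p = 6.4e-05 against neuroblasts and -0.50 ± 0.06 against otic cells). With cells of over 5% haemoglobin left out, the fall from neuroblasts to neurons no longer passed (log2 fold change -0.42, adjusted p = 0.093), and in that setting the difference between neuroblasts and otic cells turned to -0.12. In neurogenic otic cells Ccnd3 was at 81.6, 64.4 and 69.0 CPM against 84.1, 80.3 and 98.8 CPM (log2 fold change -0.25 ± 0.08, adjusted p = 0.032), a call lost without WT replicate 1 (log2 fold change -0.25, adjusted p = 0.083) or without WT replicate 2 (log2 fold change -0.16, adjusted p = 0.13).

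Of the 2 CDK inhibitors, Cdkn1a set mesenchyme apart from the other 3 classes. It stood at 95.2, 92.9 and 97.1 CPM in otic cells and 6.10, 7.04 and 6.81 CPM in mesenchyme (log2 fold change -3.82 ± 0.13, adjusted p = 2.3e-10), the largest difference of any of the 41 genes in any comparison between classes. Mesenchymal levels of Cdkn1a were 5.92%, 7.06% and 6.55% of the otic levels in unscaled CPM. In the same cells Oc90 stood at 2.05%, 1.54% and 3.70% of its otic level. In neuroblasts Cdkn1a was at 56.3, 85.3 and 47.3 CPM (log2 fold change -0.58 ± 0.16, adjusted p = 0.018 against otic cells), and this call ended without CD replicate 1 (log2 fold change -0.50, adjusted p = 0.16), without WT replicate 2 (log2 fold change -0.36, adjusted p = 0.20) and without the cells of more than 1 gate (log2 fold change -0.32, adjusted p = 0.20). WT replicate 1 was the high library among the neuroblasts. In neurons it was at 81.5, 62.9 and 80.2 CPM, not different from neuroblasts by the test (log2 fold change 0.30 ± 0.17, adjusted p = 0.22) but higher without WT replicate 1 (log2 fold change 0.68, adjusted p = 0.0026). The difference of neurons from otic cells (log2 fold change -0.28 ± 0.11, adjusted p = 0.041) ended in 7 alternatives, among them those without CD replicate 1 (log2 fold change -0.32, adjusted p = 0.12) and without WT replicate 2 (log2 fold change -0.28, adjusted p = 0.075).

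Neurogenic otic cells had less Cdkn1a than other otic cells, at 75.3, 77.3 and 68.6 CPM against 99.7, 97.8 and 103 CPM (log2 fold change -0.40 ± 0.06, adjusted p = 2.4e-04). The 2 sets of libraries did not overlap. Cdkn1b was lowest in mesenchyme, at 38.0, 41.8 and 35.8 CPM, and stood at 54.6, 61.8 and 43.1 CPM in neuroblasts. It was lower in mesenchyme than in otic cells, which were at 49.1, 49.0 and 46.8 CPM (log2 fold change -0.31 ± 0.06, adjusted p = 9.4e-04). It was higher in neurons than in otic cells, at 51.4, 60.9 and 50.4 CPM (log2 fold change 0.22 ± 0.07, adjusted p = 0.010), a call that ended without WT replicate 1 (log2 fold change 0.15, adjusted p = 0.095) and without TMM (log2 fold change 0.15, adjusted p = 0.073). Its changes from otic cells to neuroblasts (0.16 ± 0.10), from neuroblasts to neurons (0.06 ± 0.10) and in neurogenic otic cells (0.11 ± 0.07) did not pass.

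Mesenchyme differed from otic cells mainly in its cyclins and in Cdkn1a, and less in the mitotic and replication genes. Of the 41 genes 18 rose and 7 fell, where 58.3% of all genes passed (27.9% higher and 30.4% lower), so the share of the 41 that passed was close to that of all genes. Of the replication genes 8 rose and 1 fell (median 0.22, all genes -0.01), and of the mitotic genes 8 rose and 3 fell (median 0.04). Without TMM, which moved the median of all genes by -0.13 and gave 3129 higher and 6240 lower genes against 4415 and 4813, 9 of the 41 rose and 10 fell, and the mitotic median turned to -0.09. Birc5, the survivin subunit of the chromosomal passenger complex, was at 312, 358 and 334 CPM in mesenchyme and 219, 227 and 235 CPM in otic cells (log2 fold change 0.58 ± 0.06, adjusted p = 2.5e-06). Ccne2 was at 39.3, 32.7 and 32.7 CPM (log2 fold change 0.63 ± 0.07, adjusted p = 8.3e-06). Cdc6 was at 41.7, 36.2 and 33.0 CPM against 26.1, 29.4 and 22.1 CPM (log2 fold change 0.54 ± 0.09, adjusted p = 2.0e-04). In these 3 genes the classes did not overlap. Cenpf, a kinetochore protein, was lower in mesenchyme, at 354, 418 and 303 CPM against 498, 456 and 408 CPM (log2 fold change -0.33 ± 0.09, adjusted p = 0.0050), a call that ended without CD replicate 1 (log2 fold change -0.27, adjusted p = 0.10).

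Mki67 was at 298, 292 and 254 CPM in mesenchyme, a log2 fold change of -0.01 ± 0.08 from otic cells, and Pcna at 232, 206 and 223 CPM (0.02 ± 0.09). Ccnb1, at 122, 149 and 119.6 CPM (0.03 ± 0.06), and Mcm6, at 129, 113 and 131 CPM (-0.04 ± 0.06), did not pass either. Top2a was higher, at 576, 603 and 547 CPM (log2 fold change 0.24 ± 0.07, adjusted p = 0.0082), as was Ccna2, at 105, 122 and 104 CPM (log2 fold change 0.21 ± 0.06, adjusted p = 0.010). Without WT replicate 1 neither passed (log2 fold change 0.18, adjusted p = 0.063 and log2 fold change 0.17, adjusted p = 0.075). Cdk1 was at 178, 197 and 181 CPM (log2 fold change 0.28 ± 0.06, adjusted p = 0.0020) and Mcm5 at 118, 105 and 129.7 CPM (log2 fold change 0.31 ± 0.06, adjusted p = 3.8e-04). E2f1 was higher too, at 26.0, 20.9 and 28.0 CPM (log2 fold change 0.32 ± 0.10, adjusted p = 0.012), and did not pass without CD replicate 1 (log2 fold change 0.27, adjusted p = 0.12). Ccne1 was at 70.4, 76.9 and 82.8 CPM (log2 fold change 0.26 ± 0.09, adjusted p = 0.030) and did not pass without CD replicate 1 (log2 fold change 0.16, adjusted p = 0.22) or without WT replicate 2 (log2 fold change 0.21, adjusted p = 0.17). Ung was lower, at 39.2, 32.1 and 48.7 CPM against 45.6, 51.9 and 50.1 CPM (log2 fold change -0.29 ± 0.11, adjusted p = 0.030). Its call ended without CD replicate 1 (log2 fold change -0.35, adjusted p = 0.091) and without WT replicate 1 (log2 fold change -0.11, adjusted p = 0.29). The genes that fell numbered 3 without CD replicate 1. Without TMM the rises of Top2a, Cdk1, Ccna2, Ccne1 and E2f1 did not pass (adjusted p between 0.056 and 0.23), Mcm6 fell (log2 fold change -0.17, adjusted p = 0.035), and Ccnb1 and Pcna turned to -0.099 and -0.11 without passing.

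Cell cycle phase was scored from 36 S-phase and 36 G2/M genes that include none of the 41, in cells thinned to 5000 UMIs, so that the levels of the 41 genes could be set beside phase. A score orders cells and does not show that a cell divides. Cells scored G2/M made up 58.9, 59.6 and 54.0% of otic cells, 62.3, 66.2 and 51.7% of neuroblasts, 38.7, 40.1 and 34.5% of neurons and 56.2, 64.2 and 54.5% of mesenchymal cells, and cells scored S made up 24.0, 27.0 and 23.3%, 28.6, 27.9 and 38.2%, 10.9, 7.96 and 7.43% and 33.9, 30.0 and 35.0%. Neurons had the lowest shares of both in each library. The exact (Clopper-Pearson) 95% intervals of the G2/M share in neurons were 34.7% to 42.8%, 35.1% to 45.2% and 30.4% to 38.7%, and cover counting error only. Of the cells of a class, between 10.4% and 19.3% lay within 0.05 score units of a cut, and the mean G2/M share of neurons was 48.9% with another random draw against 37.7%. Without thinning it was 39.9, 39.2 and 37.2% in the libraries. Neurons had the lowest S and G2/M shares of the 4 classes in every library in each of the settings tried.

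For mitotic genes in cells scored G2/M and replication genes in cells scored S, neurons and otic cells were closer than in all cells. Because the cells were chosen by other genes of the same phases, this closeness was partly set by the choice. In cells scored G2/M the 22 mitotic genes summed to 5789, 5381 and 5148 CPM in otic cells, 5249, 6219 and 4737 CPM in neuroblasts, 5346, 5474 and 4911 CPM in neurons and 4917, 5278 and 4645 CPM in mesenchyme. The neurons and otic cells in this phase thus overlapped, unlike in all cells together. In cells scored S the 14 replication genes summed to 2338, 2342 and 2145 CPM in otic cells and 2211, 2668 and 2207 CPM in neurons. Replication genes stayed lower in neurons in the other phases. In cells scored G1 they summed to 618, 779 and 661 CPM in otic cells and 295, 263 and 288 CPM in neurons. In cells scored G2/M they summed to 1154, 1214 and 1106 CPM and 958, 891 and 907 CPM. Mitotic genes in cells scored S were higher in neurons, at 1899, 2303 and 2180 CPM against 1652, 1758 and 1668 CPM. The cyclins also differed within a phase. In cells scored G1 the 3 D-type cyclins summed to 1155, 1323 and 1230.0 CPM in otic cells and to 319, 290.2 and 287 CPM in neurons. Ccnd1 alone was at 514, 746 and 643 CPM in otic G1 cells, 218, 178 and 205 CPM in neuronal G1 cells and 1072, 837 and 755 CPM in neurons scored G2/M. Cdkn1a in otic cells was at 188, 182 and 192 CPM in G1, 114, 123 and 109 CPM in S and 79.8, 72.1 and 67.2 CPM in G2/M, with the G1 values above the others in each library. In mesenchyme Cdkn1a was below its otic level in each phase, at 15.8, 53.3 and 16.2 CPM in G1 and 4.74, 4.82 and 5.64 CPM in G2/M. These levels are unscaled CPM and are given without a test.

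The further lists are read against the shares of all genes given above (9.18% higher and 8.25% lower in neurogenic otic cells, 12.3% and 16.4% in neuroblasts, 15.4% and 13.1% in neurons against neuroblasts, and 27.9% and 30.4% in mesenchyme). In a list of 34 further replication genes, 1 rose and 2 fell in neurogenic otic cells against other otic cells, 23 rose and 0 fell in neuroblasts against otic cells, and 0 rose and 33 fell in neurons against neuroblasts. The largest rises in neuroblasts were those of Gins3 (0.63 ± 0.12), Cdc45 (0.62 ± 0.15) and Prim1 (0.59 ± 0.09), a helicase cofactor pair and a primase subunit, and large falls in neurons were those of Tk1 (-1.51 ± 0.16) and Pola1 (-1.38 ± 0.11). In neurogenic otic cells Mcm2 rose (0.23 ± 0.06) while Tk1 (-0.39 ± 0.10) and Gmnn (-0.22 ± 0.05) fell. Of 42 further mitotic genes, 26 rose and 0 fell in neurogenic otic cells, led by Racgap1 (0.56 ± 0.07), Kif18a (0.55 ± 0.10) and Nek2 (0.48 ± 0.09). In neuroblasts 14 of them rose and 0 fell, led by Pbk (1.20 ± 0.12), Spc25 (0.84 ± 0.09) and Sgo1 (0.68 ± 0.09). In neurons 41 fell and 1 rose against neuroblasts. The exception was Pttg1, the securin gene (log2 fold change 0.46 ± 0.11, adjusted p = 0.0063).

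Of 24 further G1 regulators, 7 rose and 0 fell in neurogenic otic cells. Cdc25b, counted in this list although it encodes a phosphatase of entry into mitosis, rose most, from 15.6, 14.1 and 16.5 CPM to 45.4, 38.5 and 46.1 CPM (log2 fold change 1.52 ± 0.09, adjusted p = 1.3e-08). In neuroblasts 8 rose and 1 fell, with E2f8 (0.92 ± 0.13), Myc (0.85 ± 0.29) and Rb1 (0.80 ± 0.16) higher and E2f5 (-0.69 ± 0.09) lower. In neurons 0 rose and 17 fell, the largest falls being those of E2f8 (-1.97 ± 0.14), Cdk2 (-1.67 ± 0.18) and Cdk6 (-1.45 ± 0.40). Among 5 further CDK inhibitors, 3 were tested in the 4 classes. Cdkn2c rose in neuroblasts (1.90 ± 0.57). Cdkn2d rose in neuroblasts (0.62 ± 0.13) and rose again in neurons, from 37.5, 38.3 and 36.9 CPM to 87.0, 81.4 and 119.8 CPM (log2 fold change 1.38 ± 0.12, adjusted p = 2.5e-06). Cdkn1c rose in neurons, from 520.3, 528 and 462 CPM to 805, 855 and 766 CPM (log2 fold change 0.71 ± 0.15, adjusted p = 0.0025). Unlike Cdkn2d, it stood lower in neuroblasts than in otic cells, without passing (log2 fold change -0.40). From otic cells to neurons its log2 fold change was thus only 0.31, and its otic levels are given with the genotypes below. From neuroblasts to neurons, Cdkn1c and Cdkn2d thus passed the test, whereas Cdkn1a and Cdkn1b did not.

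In a list of 11 antiproliferative genes, 6 rose and 2 fell in neurogenic otic cells. Gadd45g, a stress-response gene known for its part in cell cycle arrest, stood at 39.7, 33.0 and 38.2 CPM in other otic cells and 395, 304 and 341 CPM in neurogenic otic cells (log2 fold change 3.26 ± 0.05, adjusted p = 2.9e-15). It was at 495, 561 and 304 CPM in neuroblasts against 57.3, 51.8 and 48.6 CPM in otic cells (log2 fold change 3.11 ± 0.13, adjusted p = 9.3e-09). Btg2, an antiproliferative gene and target of p53, also rose in both (1.47 ± 0.05 and 1.26 ± 0.12). Of the 11 genes, 3 rose and 2 fell in neuroblasts against otic cells, and 2 rose (Gadd45a, 0.86 ± 0.16, and Cables2, 0.62 ± 0.19) and 2 fell (Btg3, -0.67 ± 0.18, and Gadd45g, -0.49 ± 0.12) in neurons against neuroblasts. Since Cdkn1a is a p53 target, 17 other p53 targets were counted. In mesenchyme against otic cells 11 of them fell and 3 rose, and the log2 fold changes ran from -4.45 to 1.47. Activity of p53 was not tested. The largest falls were those of Perp (-4.45 ± 0.24), Eda2r (-2.46 ± 0.26) and Trp53inp1 (-1.85 ± 0.12). Perp also encodes a junction protein of epithelia. In neuroblasts against otic cells 4 rose and 4 fell, and in neurons against neuroblasts 2 rose, Bbc3 (1.44 ± 0.20) and Plk2 (1.02 ± 0.14), and 0 fell. In neurogenic otic cells 3 of 16 tested rose and 2 fell.

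In mesenchyme against otic cells, 19 of the 34 further replication genes rose and 1 fell, and 20 of the 42 further mitotic genes rose and 3 fell. Tk1 (0.82 ± 0.09) and Orc1 (0.78 ± 0.16) led the first list and Anln (0.58 ± 0.08) and Spc24 (0.56 ± 0.05) the second. Of the 24 G1 regulators 8 rose and 8 fell, close to the shares of all genes. Myc (1.91 ± 0.12) and Cdk6 (1.07 ± 0.16), a partner of the D-type cyclins, were higher, and Rb1 (-0.76 ± 0.09) and Mycn (-0.71 ± 0.10) were lower. The inhibitors Cdkn2c (1.05 ± 0.29) and Cdkn2d (0.43 ± 0.07) were higher in mesenchyme, and of the 11 antiproliferative genes 3 rose and 3 fell, again close to the shares of all genes.

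Between genotypes, none of the 41 genes passed the threshold in any class. The comparison sets the CD library against both WT libraries with 1 residual degree of freedom, and the CD library is assumed to vary like the WT pair. Over all genes 0.0932% passed in otic cells (0.0175% higher and 0.0758% lower), 0.214% in neuroblasts (0.118% and 0.0964%), 0.115% in neurons (0.101% and 0.0144%) and 0.0384% in mesenchyme, all of these higher. DESeq2 also called none of the 41 genes in any class. On simulated data of the same design, 88.5% of genes changed 2-fold were recovered in otic cells and 41% in neurons (97.5% of those changed 4-fold). Of the unchanged genes, 21 in otic cells and 4 in neurons were called beside the 2-fold changes.

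The smallest p in otic cells was that of Ccne1, at 52.3, 80.6 and 64.4 CPM (log2 fold change -0.47 ± 0.18, unadjusted p = 0.023, adjusted p = 0.98), with the CD library lowest. Top2a (0.22 ± 0.13) and Mki67 (0.21 ± 0.14), at the levels given above, were highest in the CD library without passing. Ccnd1 (-0.21 ± 0.15), Ccnd2 (0.09 ± 0.14), Ccnd3 (-0.08 ± 0.16), Cdkn1a (0.00 ± 0.14), Cdkn1b (0.04 ± 0.15) and Pcna (0.01 ± 0.18) did not pass. In neurons the smallest p was that of Ccnd1, at 679, 509.5 and 449 CPM (0.49 ± 0.17, unadjusted p = 0.014, adjusted p = 1), with the CD library highest. Pcna (0.33 ± 0.18) and Mki67 (0.34 ± 0.20) followed, and Ccnd2 (0.01 ± 0.18), Ccnd3 (-0.07 ± 0.21), Cdkn1a (0.18 ± 0.20) and Cdkn1b (-0.13 ± 0.22) did not pass either. In neuroblasts Cdc20 (-0.44 ± 0.28), Ccnd1 (0.28 ± 0.25) and Cdc6 (-0.43 ± 0.39) had the smallest p, and Ccnd2 (-0.11 ± 0.26, but 0.51 without cells of more than 1 gate and 0.29 without WT replicate 2), Ccnd3 (-0.24 ± 0.29), Cdkn1a (-0.23 ± 0.32), Cdkn1b (0.06 ± 0.33), Mki67 (-0.00 ± 0.25) and Pcna (0.21 ± 0.25) also did not pass. In mesenchyme Cdc6 (0.27 ± 0.19), Ccne2 (0.26 ± 0.18) and Ube2c (-0.23 ± 0.17) had the smallest p. The D-type cyclins there were at 0.12 ± 0.17 (Ccnd1), 0.11 ± 0.14 (Ccnd2) and -0.07 ± 0.16 (Ccnd3), the inhibitors at -0.18 ± 0.27 (Cdkn1a) and -0.03 ± 0.19 (Cdkn1b), and Mki67 at 0.13 ± 0.16 and Pcna at 0.11 ± 0.15.

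The CD library lay above both WT libraries for 10 of the 41 genes in otic cells, 5 in neuroblasts, 16 in neurons and 7 in mesenchyme, where 33.2%, 30.1%, 30.1% and 30.4% of all genes did so. It lay below both for 9, 10, 0 and 11 genes, against 29.8%, 29.5%, 29.5% and 26.4% of all genes. In neurons 36 of the 41 fold changes were above 0, with a median of 0.11 against -0.01 for all genes tested. The summed mitotic level there was 2637, 2744 and 2107 CPM, with the CD library and WT replicate 1 close together and WT replicate 2 lower. Of the neurons kept at 5000 UMIs, 46.1, 48.5 and 54.7% lay in the highest Stmn2 bin, the bin with the lowest cell cycle sums.

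**Figure D5:**
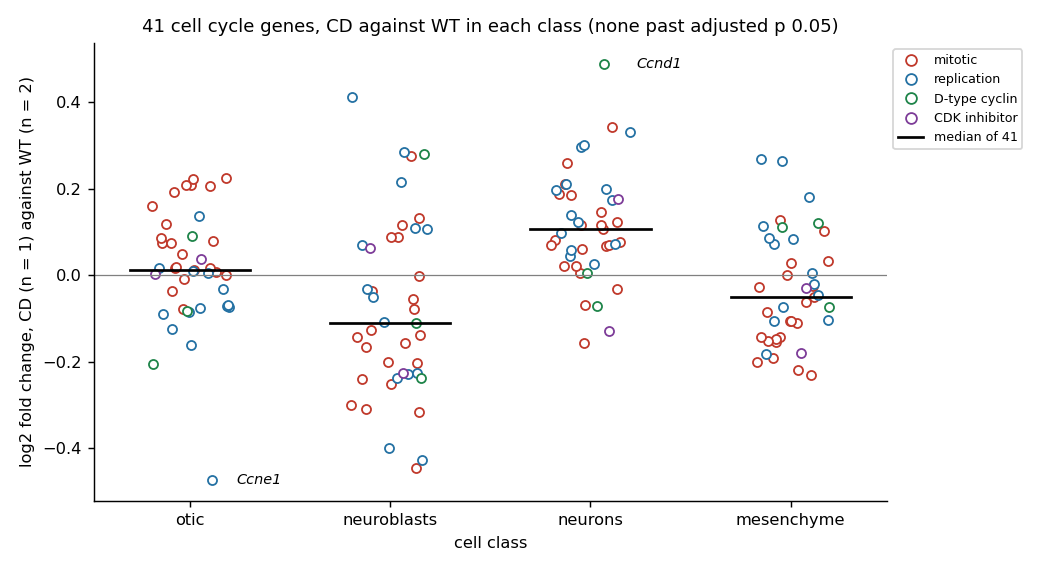
Log2 fold change of each of the 41 genes between the CD library (n = 1) and the WT libraries (n = 2) in the 4 classes (x axis), coloured by gene group, with a line at the median. No point passed the threshold, and Ccne1 in otic cells (log2 fold change -0.47) and Ccnd1 in neurons (0.49) are labelled.

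The difference of the genotype effect between a class and otic cells was tested as an interaction over the 12 sums, where 0% of the 16849 genes passed in each of the 3 interactions. At an unadjusted p under 0.05 edgeR gave 697 genes for neuroblasts, 397 for neurons and 241 for mesenchyme, and DESeq2 called 2, 2 and 4 genes. Among the 41, Ccnd1 had an interaction of 0.71 ± 0.23 (unadjusted p = 0.012, adjusted p = 1) and Ccne1 of 0.58 ± 0.20 (unadjusted p = 0.017, adjusted p = 1) between neurons and otic cells, and Tyms one of 0.29 ± 0.13. For neuroblasts the smallest p were those of Kif23 (-0.53 ± 0.20), Cdc20 (-0.46 ± 0.18) and Aspm (-0.52 ± 0.23), and for mesenchyme those of Kif23 (-0.27 ± 0.13), Aspm (-0.27 ± 0.15) and Ccnb1 (-0.22 ± 0.13). No further replication, mitotic, G1, inhibitor, antiproliferative or p53 list gene passed in any class either. Among these, Cdkn1c in otic cells had the values 491, 793 and 786 CPM, lowest in the CD library (log2 fold change -0.68 ± 0.14, unadjusted p = 6.4e-04, adjusted p = 0.18).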

How the data were processed

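The 3 libraries of pooled otic vesicles from mouse embryos at E10.5 comprised 1 from Sox9 Y440X/+ (CD) and 2 from wild-type (WT) embryos. Per the submitters' processing notes the authors ran Cell Ranger 6.0 against mm39 (6.0.0 per the file headers). What they deposited are raw UMI counts, a whole number for each gene in each barcode. The libraries held 12322, 8330 and 16649 barcodes and 186439890, 157373393 and 202584468 UMIs (CD replicate 1, WT replicate 1, WT replicate 2), and 8548, 6564 and 11018 cells were kept, with median depths of 18652.5, 20418.5 and 15508.5 UMIs. Between 14 and 27 barcodes were shared between 2 libraries. Doublets (Scrublet in scanpy 1.11.5) made up 3.29%, 2.80% and 3.39% of cells and were kept, with their removal as an alternative. Cells meeting more than 1 gate numbered 81, 26 and 115 and counted in each.

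Cells of 1 library are not replicates, so the counts of a class were added up within each library and tested with edgeR 4.0.16 in R 4.3.3 (TMM, filterByExpr, quasi-likelihood test). The 12 sums of the 4 classes were fitted together with the library as block, because the classes of a library come from 1 pool, the neurogenic split as 6 sums with the same block, and genotypes per class on 1 against 2 sums. DESeq2 1.42.0 was an alternative. The scripts were tested on simulated counts, where 92.5% of 2-fold changes were recovered for neurons against neuroblasts (15820 genes), 91.5% for neuroblasts against otic cells and 75.0% for the interaction of neurons (16849 genes). Each run changed 200 genes, drawn from the better expressed ones only. Of the unchanged genes 2, 9 and 47 were called in these runs, and 30 in that of mesenchyme against otic cells. The labels do not state whether the WT pools are from separate litters, so p-values measure only the spread between these libraries, which may be technical. The WT pair differed by more than counting noise in each class (chi-square per degree of freedom between 5.89 and 55.5). Exact permutation of 3 against 3 libraries, ignoring that classes share a library, cannot go below 0.10. Swaps of classes within a library allow fewer arrangements and cannot go as low. Neither was used.

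The 41 genes and all lists were chosen with earlier results of these data known. Genes named per library were 16 fixed members and the up to 5 largest changes each way per class comparison, for genotype the 3 smallest p with 7 fixed members, and up to 3 genes each way of each further list. Genes named outside this rule were chosen after their values were seen.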

Additional observations from a re-analysis of the deposited data

How the results depend on the processing

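Alternatives covered the tool, the filter on low counts, doublets, cells of more than 1 gate, looser cell filters, thinning to 5000 UMIs, the library block and each library left out, and, chosen after seeing the data, leaving out cells with haemoglobin or endothelial transcripts, library totals without TMM, and TMM factors from all classes of the path to neurons for the neurogenic split. The counts that follow cover only genes of the 41, as named by the rule given above. In the comparisons of classes, 1140 values kept direction and side of the threshold, 63 lost it, 11 gained it and 21 reversed. For genotype 323 kept it and 27 reversed, and for interactions 71 and 1. Genes of the further lists, Cdkn1c and Cdkn2d among them, are not in these counts. Whether their calls held under the alternatives was not assessed here. The cause of each change was not tested. The neuroblast sums held between 1155520 and 1479300 UMIs, the fewest of the 4 classes, and the genotype rests on 1 CD library.

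After thinning to 5000 UMIs, the genes called over all genes fell to 2309 for neuroblasts against otic cells, 2277 for neurons against neuroblasts and 1222 for neurogenic against other otic cells, where 13 of the 41 genes were higher and 2 lower, and 1 gene (Cdkn1a) was higher in neurons than in neuroblasts. DESeq2 left 3 lower genes in neurogenic otic cells. Without cells of more than 1 gate, 1 of the 41 was lower in neuroblasts than in otic cells and 4 in mesenchyme. In neurons against otic cells 1 gene was higher with no filter, with thinning, without the block or without TMM. Without TMM 4 of the 41 were lower in neuroblasts and 9 higher in mesenchyme, where Ccnb1 (-0.099) and Pcna (-0.11) reversed. With the factors of the whole path 11 were lower in neurogenic otic cells, and Cdkn1b reversed (-0.027).

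The library block is part of the comparisons of classes because the classes of a library come from 1 pool. With no replicate block, mesenchyme had 11 higher and 3 lower genes of the 41, neurogenic otic cells had 1 lower and 1371 genes called over all genes, and Mki67 in mesenchyme was at 0.0057. No paired analysis was possible because the CD and WT groups share fewer than 2 replicate numbers.

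Leaving out 1 library at a time gave, of the 41, between 0 and 4 lower in neuroblasts, 0 to 1 higher in neurons against neuroblasts, 1 to 2 higher in neurons against otic cells, 3 to 8 lower in mesenchyme and 3 to 5 lower in neurogenic otic cells, and over all genes 2603 to 3381 called for neuroblasts and 2965 to 3489 for neurons against neuroblasts. The other all-gene counts were 8112 to 9298 for neurons against otic cells, 6597 to 8420 for mesenchyme and 2015 to 2691 for neurogenic otic cells. Single genes that changed sign ranged from -0.013 to 0.13 (Cdkn1b, neurons against neuroblasts) and, in mesenchyme, from -0.050 to 0.012 (Mki67), -0.061 to 0.094 (Ccnb1), -0.088 to 0.17 (Pcna) and -0.086 to 0.041 (Mcm6). Without 1 WT library the genotype has no residual degrees of freedom, so only values were computed. In otic cells they ranged from -0.24 to 0.053 (Ccnd3), -0.038 to 0.016 (Cdkn1a), -0.015 to 0.061 (Cdkn1b) and -0.20 to 0.22 (Pcna). In neuroblasts they ranged from -0.42 to 0.29 (Ccnd2), -0.49 to 0.080 (Ccnd3), -0.59 to 0.24 (Cdkn1a), -0.18 to 0.33 (Cdkn1b) and -0.25 to 0.28 (Mki67). In neurons they ranged from -0.065 to 0.10 (Ccnd2), -0.12 to 0.0091 (Ccnd3) and -0.26 to 0.035 (Cdkn1b), and in mesenchyme from -0.039 to 0.30 (Ccnd1), -0.15 to 0.00046 (Ccnd3) and -0.14 to 0.086 (Cdkn1b).

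Other reversals between classes were Ccnd3 in neuroblasts (-0.21 without cells of more than 1 gate, -0.23 thinned and -0.12 without haemoglobin-rich cells), Mki67 in mesenchyme (0.0036 without doublets, 0.023 without cells of more than 1 gate and 0.036 thinned), Pcna in mesenchyme (-0.0044 with no filter), Mcm6 in mesenchyme (0.023 thinned), and Mcm5 (0.047) and Ccne2 (0.18) in neurogenic otic cells thinned. Reversals between genotypes were Cdkn1a in otic cells (-0.0057 with DESeq2, -0.0036 with no filter and -0.044 thinned), Pcna in otic cells (-0.00022 with DESeq2), Ccnd2 in neuroblasts (0.51 without cells of more than 1 gate), Mki67 in neuroblasts (0.041 without cells of more than 1 gate, 0.035 thinned and 0.028 without haemoglobin-rich cells), Ccnd2 in neurons (-0.18 without cells of more than 1 gate and -0.017 with looser filters), Ccnd3 in neurons (0.081 thinned) and Cdkn1b in mesenchyme (0.0036 thinned). The interaction of Kif23 for neuroblasts was 0.026 thinned.

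The genotype calls over all genes varied with the setting. In otic cells (16) they were 61 with DESeq2, 155 with no filter, 6 without doublets and 8 each with looser cell filters, without endothelial and without haemoglobin-rich cells. In neuroblasts (20) they were 1 with DESeq2, 6 without doublets, 41 without cells of more than 1 gate, 1 with looser filters, 3 thinned and 1 without endothelial cells. In neurons (16) they were 8 with DESeq2, 106 with no filter, 97 without cells of more than 1 gate, 28 with looser filters and 52 without endothelial cells. In mesenchyme (6) they were 54 with no filter, 0 without doublets, 18 thinned and 0 without haemoglobin-rich cells. The interactions, with 0 by edgeR, gave 2, 2 and 4 with DESeq2, 2, 4 and 1 with no filter and 1, 9 and 2 thinned, for neuroblasts, neurons and mesenchyme.

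Mean phase shares moved by more than 1 SD in otic cells for S (28.7% with the 41 genes in the lists, 22.3% at 3000 UMIs and 19.8% with another seed) and G2/M (51.8% with the 41 genes and 65.0% with another seed), in neurons for G2/M (33.9%, 42.5% and 48.9% in the order of S), and in mesenchyme for S (37.7%, 28.3% and 26.7%) and for G2/M (66.5% with another seed).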
